A study of Mus musculus with 6 samples.

Results

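Solute carriers are the membrane proteins that move sugars, amino acids, nucleosides, metals, ions and other small molecules across cellular and organelle membranes. Their genes, whose symbols begin with Slc and a family number, were examined in 2 lymphocyte populations of the mouse mammary gland late in pregnancy. Of 379 such symbols among 55450 genes, 4 ending in -ps or Rik were left out, which left 375. A count was seen for 279 of these, and the 141 with at least 300 counts summed over all 6 libraries were taken as members. Among these symbols the summed count alone chose the members, so abundance is a property of the selection. The rule itself was set with earlier results of these data known. Slc35f5 with 317 counts and Slc20a2 with 301 lay just inside the minimum, and Slc37a2 with 298 and Slc5a6 with 267 just outside. The members included 3 genes that are named after a solute carrier but are not transporters, Slc9a3r1, Slc4a1ap and Slc7a6os.

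Bulk RNA sequencing covered 3 libraries of CD8 beta+ T cells and 3 of DN (double negative) NK1.1+ lymphocytes, both sorted from mammary glands of mice in late pregnancy (E18.5). CD8 beta is a chain of the coreceptor of conventional cytotoxic T cells, and NK1.1 is a receptor of natural killer (NK) cells and some T cells. No treatment or gene deletion is given for either group. The sources used here do not give the strain, the age, the number of animals, any pooling of animals or the marker pair that defines DN. The comparison asked how transporter expression in DN NK1.1+ lymphocytes differed from that in CD8 beta+ T cells of the same gland. The labels do not say that libraries came from separate animals, so p-values measure only how far these samples spread, and that spread may be technical.

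Activated lymphocytes are known for importing glucose through the facilitative carriers Slc2a1 and Slc2a3, for importing amino acids through the Slc3a2 heterodimers and the Slc1 and Slc38 families, and for exchanging lactate with protons through the Slc16 family. Mitochondrial carriers of the Slc25 family pass nucleotides, phosphate and metabolites across the inner mitochondrial membrane. Slc39 proteins bring zinc and related metals into the cytosol, and Slc30 proteins move zinc out of it.

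Levels are given as CPM (counts relative to library size, with sizes scaled by the TMM method), for CD8 beta+ libraries 1, 2 and 3 in that order and then for DN NK1.1+ libraries 1, 2 and 3. Fold changes are DN NK1.1+ over CD8 beta+. Rose and fell mean an adjusted p under 0.05 in the quasi-likelihood test of edgeR, adjusted by Benjamini-Hochberg over 13171 genes, which gave every adjusted p reported. Library totals ran from 7961360 to 14367299 counts. Klrb1c, which encodes NK1.1, was at 37.1 ± 5.69 CPM in CD8 beta+ and 639 ± 20.8 CPM in DN NK1.1+ libraries (SD, n = 3 each). Summed markers of T cells were 2511 to 2676 CPM in CD8 beta+ and 1607 to 1774 CPM in DN NK1.1+ libraries, and those of NK cells 309.5 to 375 and 1956 to 2093 CPM. Library 3 of each group stood apart in basal and myoepithelial markers, at 137.5 and 187.3 CPM against 10.3 to 22.9 CPM in the other 4, and in fibroblast markers, at 157.4 and 145 CPM against 1.84 to 41 CPM. Luminal and milk markers ran from 494.9 to 786 CPM in CD8 beta+ and from 274.5 to 1596 CPM in DN NK1.1+ libraries. Among markers of other cell types, Epcam (epithelium) was 5.29-fold higher in DN NK1.1+ libraries (adjusted p = 4.06e-06), Pecam1 (endothelium) 1.85-fold higher (0.00567), Csf1r (macrophages) 1.84-fold higher (0.026) and Cd79b (B cells) 2.49-fold lower (0.018). Each was the 1 marker of its list that passed, of 11, 5, 8 and 5 listed in that order. Epcam was at 30.8, 32.8 and 32.3 CPM in DN NK1.1+ libraries and did not follow their luminal and milk sums. In DN NK1.1+ library 2, Pecam1 made up 47.9 of the 48.3 CPM of endothelial markers, and Cdh5, Kdr and Vwf were at 0. The part of these cell types in the members' differences was not tested.

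The sequences just upstream of 3 members are shown first, because these genes had the smallest adjusted p-values of all members and include the lactate carrier, an amino acid carrier and a magnesium carrier. They are the 250 bases before the RefSeq gene start, on the GRCm38.p6 build, 5′ to 3′ on the gene's own strand. Slc16a1 lies at chr3:104638414-104638663 on the plus strand, Slc16a10 at chr10:40142255-40142504 on the minus strand and Slc41a2 at chr10:83337818-83338067 on the minus strand. Capitals mark matches to 2 motifs, an E-box and an antioxidant element, which are described at the end of the results. Both matched in Slc16a1 and overlap in 1 run of capitals, the capitals in Slc41a2 are an antioxidant element, and Slc16a10 has neither.
Slc16a1: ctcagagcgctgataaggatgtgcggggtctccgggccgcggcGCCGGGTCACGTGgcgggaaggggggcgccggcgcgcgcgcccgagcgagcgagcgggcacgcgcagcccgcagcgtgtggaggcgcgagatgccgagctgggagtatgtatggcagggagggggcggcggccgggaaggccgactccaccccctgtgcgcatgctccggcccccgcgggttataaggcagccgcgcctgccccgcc
Slc16a10: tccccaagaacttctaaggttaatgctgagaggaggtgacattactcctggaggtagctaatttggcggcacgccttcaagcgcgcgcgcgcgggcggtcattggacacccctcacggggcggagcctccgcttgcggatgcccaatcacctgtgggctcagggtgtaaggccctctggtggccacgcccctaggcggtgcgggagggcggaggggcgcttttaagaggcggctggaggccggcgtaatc
Slc41a2: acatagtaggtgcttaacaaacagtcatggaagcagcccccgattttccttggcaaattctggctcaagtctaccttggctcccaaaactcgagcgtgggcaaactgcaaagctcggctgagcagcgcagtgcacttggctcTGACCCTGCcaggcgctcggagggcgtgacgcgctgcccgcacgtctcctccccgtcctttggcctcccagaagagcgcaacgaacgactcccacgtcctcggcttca

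Most solute carrier genes were at similar levels in both populations, and a minority moved in each direction. Of the 141 members, all of which passed the filter on low counts, 9 rose in DN NK1.1+ libraries (6.38%), 13 fell (9.22%) and 119 did not pass. Over all tested genes 7.84% rose and 5.99% fell, and among the 9690 genes with at least 300 counts 9.35% rose and 7.37% fell, so the members' shares were near the background in both directions. The number that fell was 8 without CD8 beta+ library 1, 6 without CD8 beta+ library 2, 8 without DN NK1.1+ library 1 and 7 without DN NK1.1+ library 2. Changes of at least 2-fold were seen for 5 of the 141 members that rose and 1 that fell, against 534 (4.05%) and 332 (2.52%) of 13171 tested genes. Counts of those 5 in CD8 beta+ and DN NK1.1+ libraries were 35 and 282 for Slc35f5, 51 and 283 for Slc27a6 and 101 and 353 for Slc52a3. For Slc41a2 they were 131 and 696, and for Slc22a15 205 and 538. None reached 300 counts in CD8 beta+ libraries alone, so their membership rests on the group where they are high. The 2 groups of libraries did not overlap for 54 members (38.3%), 26 of them higher and 28 lower in DN NK1.1+, against 30.6% of all tested genes and 33.6% of those with at least 300 counts. The median log2 fold change was 0.04 over the members and -0.0033 over all tested genes, and the median absolute change was 0.26 and 0.29. Summed over all members, the level was 6580, 6540 and 6782 CPM in CD8 beta+ and 6650, 6666 and 6911 CPM in DN NK1.1+ libraries. In such bulk samples, fewer cells of a type and less RNA per cell cannot be told apart.

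**Figure D1:**
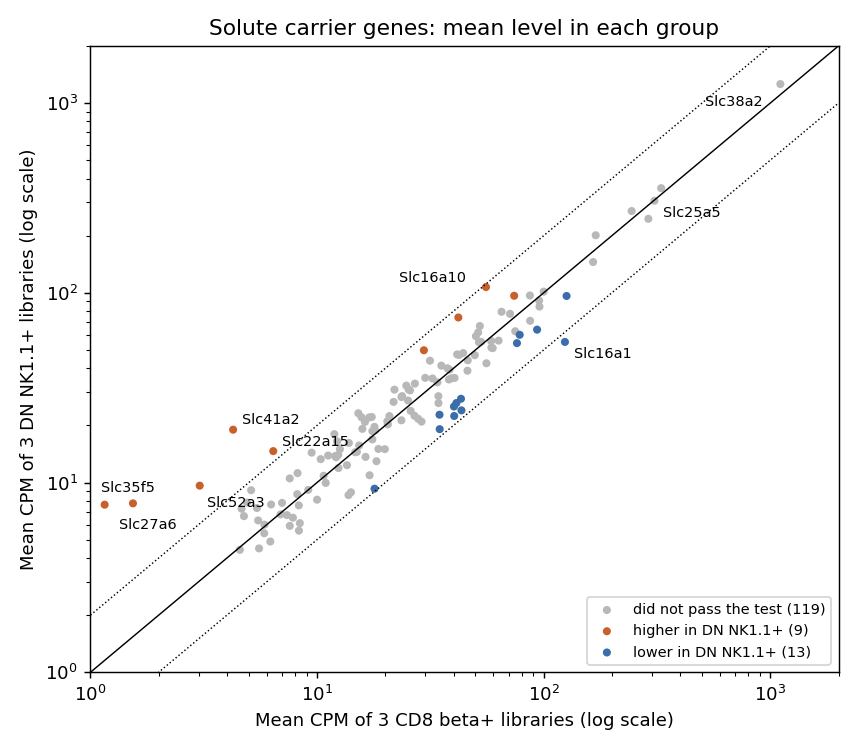
Mean CPM of each of the 141 solute carrier genes in the 3 CD8 beta+ libraries (x axis, log scale) and the 3 DN NK1.1+ libraries (y axis, log scale), coloured by the edgeR call; the solid line marks equal levels and the dotted lines a 2-fold difference. Most points lie between the dotted lines, with Slc35f5, Slc27a6, Slc41a2, Slc52a3 and Slc22a15 above the upper line and Slc16a1 below the lower one.

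Levels of different genes were compared per kilobase of exon. On that scale Slc25a5, an ADP/ATP carrier of mitochondria, was highest among the members with a mean of 186.4 CPM per kilobase over both groups. Slc38a2, a sodium-coupled carrier of small neutral amino acids, followed with 133.9, then the mitochondrial phosphate carrier Slc25a3 with 61.8 and Slc3a2, the heavy chain of heterodimeric amino acid exchangers, with 52.5 CPM per kilobase. None of these passed the test. Slc25a5 and Slc25a4 are related ADP/ATP carriers, and the sources used here do not give how reads that match more than 1 gene were counted.

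Slc16a1, the proton-linked carrier of lactate, pyruvate and ketone bodies also called MCT1, fell in DN NK1.1+ lymphocytes and had the smallest adjusted p of all members. It was at 121.8, 118.7 and 131.8 CPM in CD8 beta+ libraries and at 50.7, 63.4 and 51.1 CPM in DN NK1.1+ libraries. Every DN NK1.1+ library was far below every CD8 beta+ library. The means were 124.1 ± 6.85 and 55.1 ± 7.23 CPM (SD, n = 3 each), 2.25-fold lower in DN NK1.1+ (log2 fold change -1.17, SE 0.117, adjusted p = 4.92e-06). The gene lies at chr3:104638668-104658462 on the plus strand. Slc16a1 was the single lactate carrier among the members. Its relative Slc16a3, the carrier known for lactate export, had 40, 33 and 16 counts in CD8 beta+ and 50, 45 and 60 counts in DN NK1.1+ libraries, and Slc16a7 had 0, 1 and 13 against 18, 27 and 13 counts, both under the 300-count minimum. These counts are not scaled by library size, and no difference between groups is read from them. For example, 1 count was 0.13 CPM in CD8 beta+ library 1 and 0.0759 CPM in DN NK1.1+ library 3. The chaperones that bring these carriers to the surface were also measured. Emb fell from 274.6 to 210.8 CPM (log2 fold change -0.38, adjusted p = 0.0328), a call that ended without any single library other than CD8 beta+ library 3 (adjusted p 0.0601 to 0.203). Bsg was at 54.8 and 61.5 CPM and did not pass (adjusted p = 0.433).

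Among the 17 members that carry amino acids or peptides, 1 rose, 3 fell and 13 did not pass. The shares over all tested genes were 7.84% that rose and 5.99% that fell. No class was tested as a set, and the counts of this class and those below are not read as results about a class. Slc16a10, a facilitative carrier of aromatic amino acids, rose. It was at 53.7, 51.2 and 62 CPM in CD8 beta+ and at 109.9, 93.7 and 118 CPM in DN NK1.1+ libraries, 1.93-fold higher (log2 fold change 0.95, SE 0.122, adjusted p = 6.02e-05). Its lowest DN NK1.1+ library was well above its highest CD8 beta+ library. The other calls were of members that fell. Slc43a2, a sodium-independent carrier of branched-chain amino acids and phenylalanine, was at 43.4, 44.1 and 42.5 CPM in CD8 beta+ and at 18.9, 24.7 and 28.4 CPM in DN NK1.1+ libraries (1.8-fold lower, adjusted p = 0.00282). Its CD8 beta+ libraries lay within 2 CPM of one another, above all DN NK1.1+ libraries. Slc7a6, a light chain that pairs with Slc3a2 to exchange cationic for neutral amino acids, was at 37.7, 40.8 and 51 CPM and at 22, 30.3 and 30.6 CPM (1.56-fold lower, adjusted p = 0.0222). Its groups did not overlap, but the call ended without CD8 beta+ library 2, CD8 beta+ library 3 or DN NK1.1+ library 1 (adjusted p 0.0543 to 0.106). Slc6a6, the taurine carrier, was at 124.3, 124.5 and 129.8 CPM and at 91.4, 91.6 and 105.7 CPM (1.31-fold lower, adjusted p = 0.0167). Without library 1 or 2 of either group that call ended (adjusted p 0.0511 to 0.0814).

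Several abundant amino acid carriers did not pass. Slc38a2 was at 1108 ± 90.9 CPM in CD8 beta+ and 1259 ± 10.7 CPM in DN NK1.1+ libraries, with a 95% interval of the log2 fold change from -0.02 to 0.39 (adjusted p = 0.263). All 5 members of the Slc38 family had positive log2 fold changes, from 0.14 to 0.48, and 0 of them passed. The groups of libraries overlapped in Slc38a1, Slc38a7 and Slc38a9 and were apart in Slc38a2 and Slc38a10. Slc3a2 was at 169.7 ± 4.63 and 201 ± 9 CPM (adjusted p = 0.0942). Its partner Slc7a5, the large neutral amino acid exchanger, was at 52.3, 59 and 56.4 CPM in CD8 beta+ and at 36.1, 41.7 and 49.7 CPM in DN NK1.1+ libraries (log2 fold change -0.39, adjusted p = 0.0851). The groups did not overlap in either gene, and the values of the heavy chain were higher and those of this light chain lower in DN NK1.1+ libraries. Slc1a5, a carrier of glutamine and other neutral amino acids, was at 74.9 ± 5.57 and 62.7 ± 9.95 CPM (adjusted p = 0.248). Slc15a2, a peptide carrier, followed the libraries rather than the groups: it was at 17.5 and 15.4 CPM in library 3 of each group and at 3.1 to 6.79 CPM in the other 4, beside the basal and fibroblast markers given above, whose part in this was not tested.

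The 8 sugar carriers held 1 call, Slc37a1, which exchanges glucose 6-phosphate for phosphate in the endoplasmic reticulum. It was at 46.7, 31.6 and 26.1 CPM in CD8 beta+ and at 14.5, 17.5 and 25.3 CPM in DN NK1.1+ libraries (1.81-fold lower, adjusted p = 0.0364). CD8 beta+ library 3 and DN NK1.1+ library 3 nearly met. The call ended without library 1 or 2 of either group (adjusted p 0.0745 to 0.192). The fall was larger, -1.28 on the log2 scale, without library 3 of both groups (adjusted p = 0.000466). Leaving out both was chosen after the values were seen and does not strengthen the call. The surface glucose carriers did not pass. Slc2a3, the high-affinity carrier also called GLUT3, was at 87.6, 86.4 and 87.4 CPM in CD8 beta+ and at 58.9, 82.3 and 72.4 CPM in DN NK1.1+ libraries. Its CD8 beta+ libraries were nearly equal and each DN NK1.1+ library was lower, but spread in the latter group was wide (95% interval of the log2 fold change -0.56 to -0.03, adjusted p = 0.156). Slc2a1, also called GLUT1, was at 44.1, 40.9 and 42 CPM and at 41, 44.5 and 55.7 CPM, and its groups overlapped (95% interval -0.16 to 0.46, adjusted p = 0.583). Summed over the class, sugar carriers were at 299.2 ± 25.7 CPM in CD8 beta+ and 253.1 ± 14.4 CPM in DN NK1.1+ libraries.

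**Figure D2:**
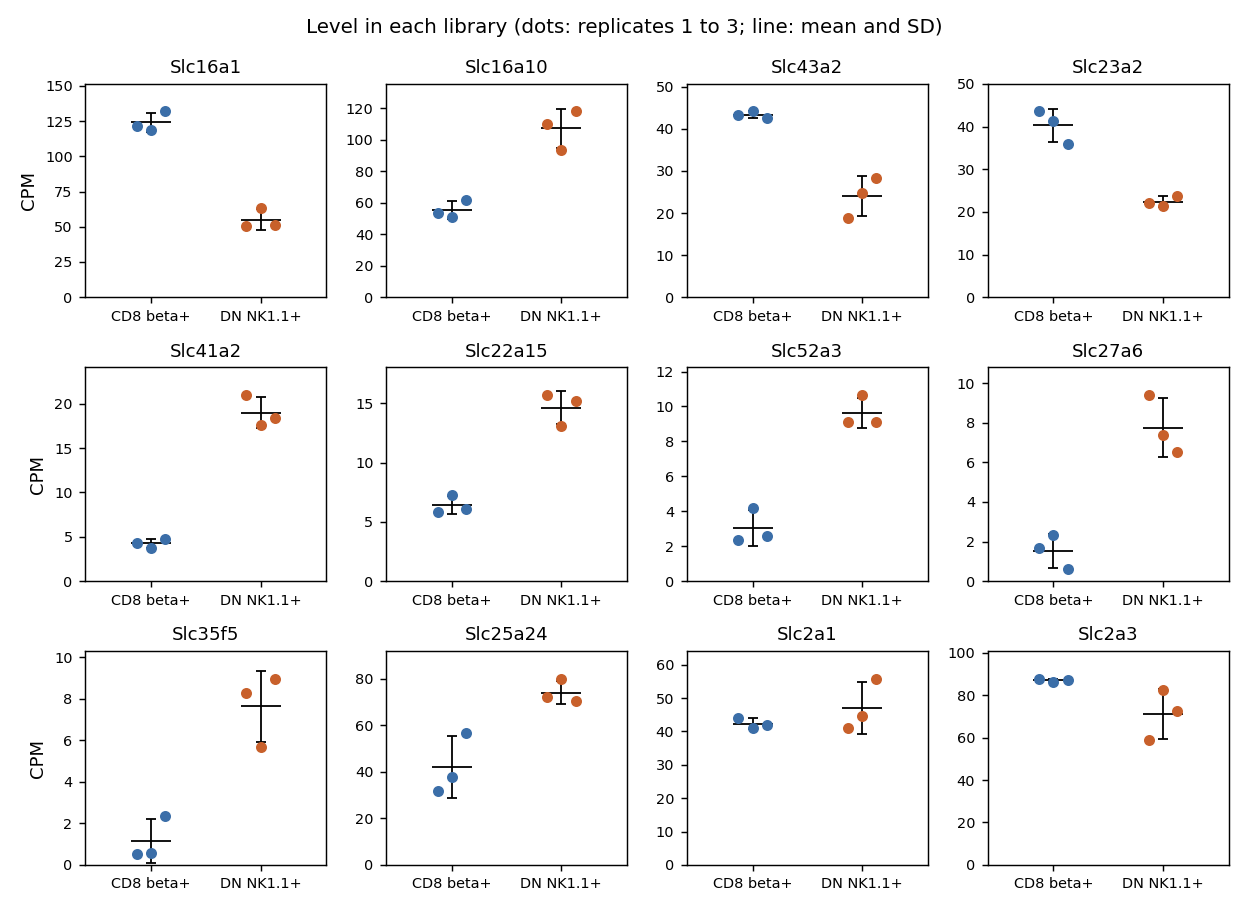
CPM of 12 solute carrier genes in each library (dots, replicates 1 to 3 from left to right; black lines, mean and SD of 3 libraries), each panel with its own axis from 0. The groups are apart in the 10 members that passed the test and in Slc2a3, and they overlap in Slc2a1.

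Metal carriers were 22 members, of which 1 rose and 2 fell. Slc41a2, a magnesium carrier, rose 4.46-fold (log2 fold change 2.16, SE 0.246, adjusted p = 1.78e-05). It was at 4.29, 3.76 and 4.74 CPM in CD8 beta+ and at 20.9, 17.6 and 18.4 CPM in DN NK1.1+ libraries, which corresponds to 33, 52 and 46 counts against 243, 210 and 243. The groups were widely separated and narrow. The related Slc41a1 was at 23.6 and 21.3 CPM and did not pass (adjusted p = 0.743). The 2 that fell handle zinc. Slc30a7, which loads zinc into the Golgi, was at 42.1, 42.4 and 39 CPM and at 27.5, 25.8 and 25.4 CPM (1.57-fold lower, adjusted p = 0.00661). Slc39a6, a zinc importer, was at 79.9, 78.5 and 76.7 CPM and at 62, 56.2 and 62 CPM (1.31-fold lower, adjusted p = 0.028). In both genes all DN NK1.1+ libraries were below all CD8 beta+ libraries. The Slc39a6 call ended without library 1 or 2 of either group (adjusted p 0.0644 to 0.116), and under scaling by library size alone. Of the 11 Slc39 members this was the sole call, and their median log2 fold change was 0.2. Slc39a10, another zinc importer, was at 30.5, 32.7 and 31.2 CPM and at 46.4, 52.6 and 32.6 CPM (adjusted p = 0.0902). It passed without library 3 of both groups (log2 fold change 0.65, adjusted p = 0.00962), an alternative chosen after the values were seen, so it is not counted as a call.

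Ion carriers were 16 members, with 1 that rose and 2 that fell. Slc9a9, a sodium-proton exchanger of endosomes, was at 93.6, 93.2 and 93.8 CPM in CD8 beta+ and at 61.4, 72.8 and 57.6 CPM in DN NK1.1+ libraries (1.46-fold lower, adjusted p = 0.004). Its CD8 beta+ libraries were within 1 CPM of one another, above every DN NK1.1+ library. Slc4a7, a sodium bicarbonate cotransporter, was at 64.9, 77.7 and 86.1 CPM and at 60.6, 55.2 and 47 CPM (1.41-fold lower, adjusted p = 0.0244). CD8 beta+ library 1 lay close to DN NK1.1+ library 1, and the call ended without library 2 or 3 of either group (adjusted p 0.0685 to 0.0883). The member of the class with the most CPM, uncorrected for length, was the phosphate carrier Slc20a1, which was at 165.2 ± 12.4 and 145.3 ± 1.6 CPM and did not pass (adjusted p = 0.247).

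Mitochondrial carriers were the largest class with 30 members, of which 1 rose, 1 fell and 28 did not pass. Slc25a24, which exchanges ATP-magnesium for phosphate under calcium control, was at 31.6, 37.6 and 56.8 CPM in CD8 beta+ and at 72.1, 79.9 and 70.4 CPM in DN NK1.1+ libraries (1.76-fold higher, adjusted p = 0.00922). CD8 beta+ library 3 stood between the other 2 and the DN NK1.1+ group. Without library 2 of CD8 beta+ or of DN NK1.1+ the call ended (adjusted p = 0.0564 and 0.0514). Without library 3 of both groups the log2 fold change was 1.13 (adjusted p = 2.38e-05). That alternative was chosen after the values were seen and does not strengthen the call. Slc25a37, the mitochondrial iron importer mitoferrin 1, was at 35.9, 37.4 and 30.9 CPM and at 24.3, 23.1 and 20.9 CPM (1.53-fold lower, adjusted p = 0.0198). Its groups were apart, and its call ended without CD8 beta+ library 1 or 2 or without DN NK1.1+ library 2 or 3 (adjusted p 0.054 to 0.0974). The abundant carriers were close: Slc25a3 was at 330 ± 11.5 and 355.9 ± 28.6 CPM (95% interval of the log2 fold change -0.09 to 0.31), and Slc25a5 at 308.1 ± 18.3 and 305.5 ± 41.7 CPM (-0.24 to 0.22). Summed over the class, the level was 1432 ± 19.9 CPM in CD8 beta+ and 1490 ± 32 CPM in DN NK1.1+ libraries.

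Carriers of nucleosides and nucleotide sugars were 17 members with 1 call. Slc29a3, a nucleoside carrier of lysosomes, was at 32.2, 42.1 and 46.2 CPM in CD8 beta+ and at 27.4, 23.6 and 24.5 CPM in DN NK1.1+ libraries (1.6-fold lower, adjusted p = 0.0131). All DN NK1.1+ libraries were below the lowest CD8 beta+ library, and the call ended without library 2 of CD8 beta+ or of DN NK1.1+ (adjusted p = 0.0629 and 0.0555). The nucleoside carriers of the cell surface did not pass: Slc29a1 was at 25.9 and 23.9 CPM (adjusted p = 0.777) and Slc28a2 at 46.1 and 38.8 CPM (adjusted p = 0.369). Slc35a3, which supplies the Golgi with UDP-N-acetylglucosamine, had the most CPM of the class, uncorrected for length, at 65.2 ± 4.28 and 79.4 ± 5.15 CPM. Its groups did not overlap, and it did not pass (adjusted p = 0.118).

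Carriers of other organic solutes held 4 of the 9 members that rose, with 14 members in the class, and 1 fell. Over all tested genes 7.84% rose and 5.99% fell, and no class was tested as a set. Slc27a6, a fatty acid transport protein, rose 4.95-fold (log2 fold change 2.31, SE 0.479, adjusted p = 0.00388). It was at 1.69, 2.31 and 0.618 CPM in CD8 beta+ and at 9.4, 7.37 and 6.52 CPM in DN NK1.1+ libraries, from 13, 32 and 6 counts against 109, 88 and 86. Slc52a3, a riboflavin carrier, rose 3.13-fold (log2 fold change 1.64, SE 0.35, adjusted p = 0.00463). It was at 2.34, 4.19 and 2.57 CPM and at 9.14, 10.6 and 9.1 CPM. The lowest DN NK1.1+ library of each gene was at least 2-fold above its highest CD8 beta+ library. Slc22a15, a carrier of organic cations and zwitterions, rose 2.28-fold (log2 fold change 1.19, SE 0.247, adjusted p = 0.00394), from 5.85, 7.3 and 6.08 CPM to 15.7, 13.1 and 15.2 CPM. Slc14a1, a urea carrier, was at 22.6, 26.6 and 39.6 CPM and at 49.4, 50.5 and 49.5 CPM (1.68-fold higher, adjusted p = 0.012). CD8 beta+ library 3 was the nearest to the DN NK1.1+ group. The Slc14a1 call ended without CD8 beta+ library 1 or 2 (adjusted p = 0.0715 and 0.0735). Slc23a2, a sodium-coupled vitamin C carrier, fell: it was at 43.5, 41.4 and 35.9 CPM and at 22.2, 21.3 and 23.8 CPM (1.8-fold lower, adjusted p = 0.00156). Uncorrected for length, the most CPM of the class belonged to the choline carrier-like protein Slc44a2, which was at 289.7 ± 22.5 and 245.4 ± 11.1 CPM and did not pass (adjusted p = 0.121).

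Among 13 members whose substrate was left unassigned, 1 rose and 1 fell. Slc35f5 rose and had the largest fold change of any member, 6.59-fold (log2 fold change 2.72, SE 0.56, adjusted p = 0.00369). It was at 0.52, 0.578 and 2.37 CPM in CD8 beta+ and at 8.28, 5.7 and 8.95 CPM in DN NK1.1+ libraries, from 4, 8 and 23 counts against 96, 68 and 118. The groups did not overlap, and CD8 beta+ library 3 was the highest of its group. Without that library the log2 fold change was 3.75 (adjusted p = 0.000196). Slc35f2 fell from 18.9, 14.5 and 20.5 CPM to 8.36, 11 and 8.5 CPM (1.93-fold lower, adjusted p = 0.0125). Its call ended without library 1 of either group (adjusted p = 0.0601 and 0.0565). Slc35e1, with the most CPM of the group uncorrected for length, was at 95.8 and 84.6 CPM and did not pass (adjusted p = 0.326). The 3 members that are not transporters did not pass, among them the scaffold Slc9a3r1 at 100 and 101.4 CPM.

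**Figure D3:**
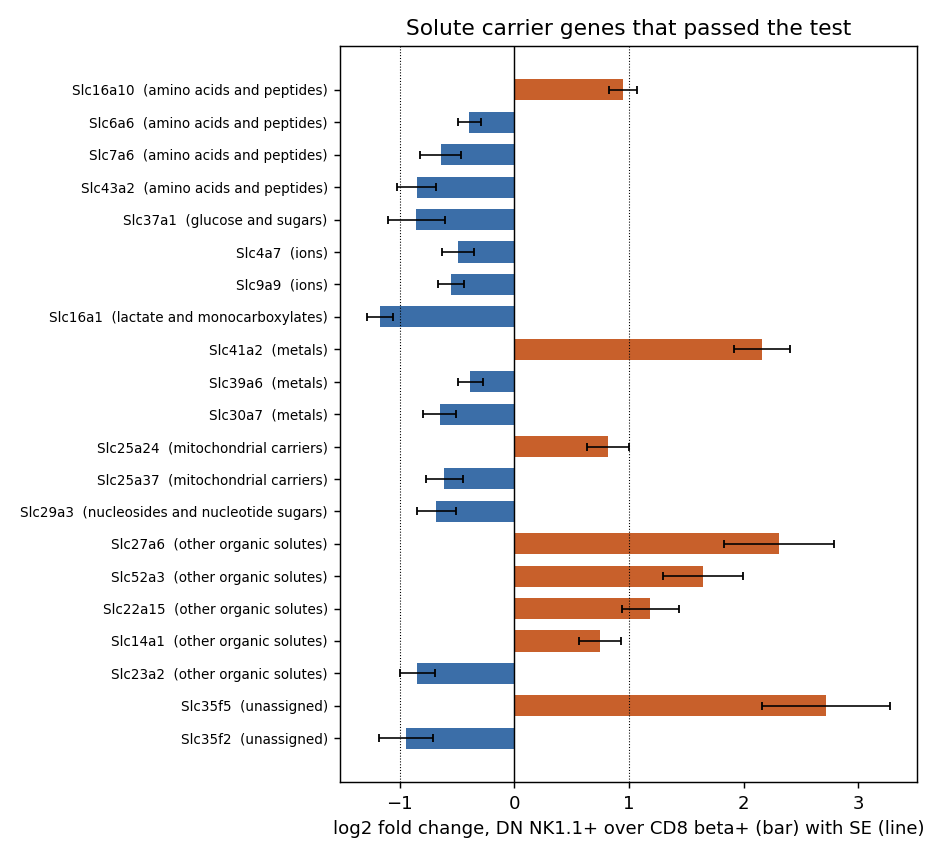
log2 fold change (bars, DN NK1.1+ over CD8 beta+) with its SE (lines) for 21 of the 22 solute carrier genes that passed the edgeR test, labelled by substrate class; dotted lines mark a 2-fold change. The 5 members that rose at least 2-fold are Slc35f5, Slc27a6, Slc41a2, Slc52a3 and Slc22a15, and Slc16a1 is the 1 member that fell at least 2-fold.

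Class sums were furthest apart for lactate, where Slc16a1 alone makes the class, and for sugars, both given above. Slc16a6, of the same family, was placed among the members of unassigned substrate. It was at 41.5 CPM in CD8 beta+ and 47.3 CPM in DN NK1.1+ libraries and did not pass (adjusted p = 0.448). Amino acid and peptide carriers summed to 2113 ± 120.8 CPM in CD8 beta+ and 2315 ± 37 CPM in DN NK1.1+ libraries, metal carriers to 521.1 ± 3.42 and 556.3 ± 6.1 CPM, ion carriers to 746.3 ± 28.9 and 692.6 ± 11.9 CPM, and nucleoside and nucleotide sugar carriers to 462.5 ± 6.13 and 467 ± 37.3 CPM (SD, n = 3 each). Sums follow their most abundant members, such as Slc38a2 among the amino acid carriers.

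**Figure D4:**
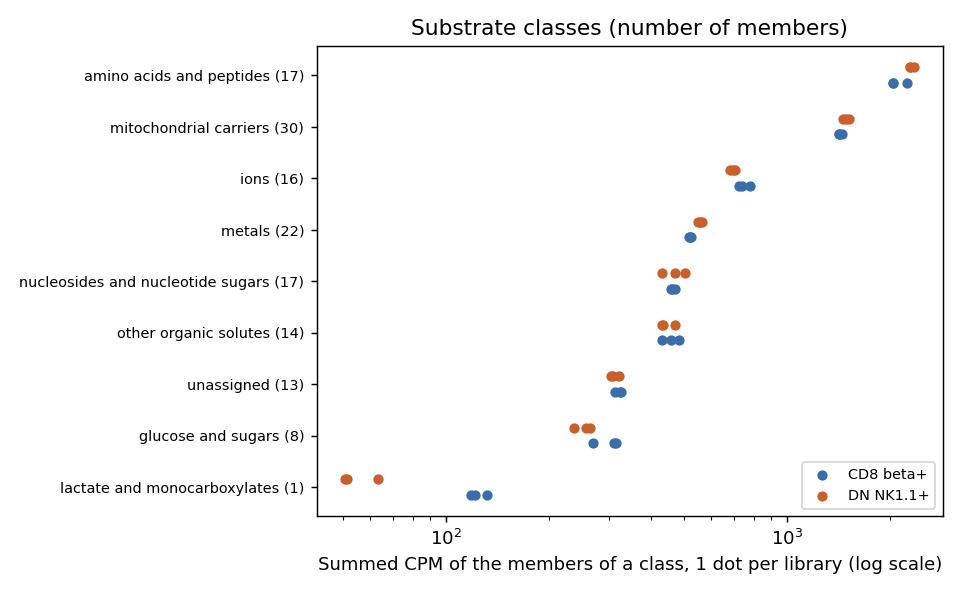
Summed CPM of the members of each substrate class (x axis, log scale), 1 dot per library, with the number of members in brackets. The 2 groups lie close together in most classes, and the lactate class, which is Slc16a1 alone, is lower in all 3 DN NK1.1+ libraries.

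Of 52 companion genes that chaperone, regulate, power or work beside solute carriers, 49 were tested, and 8 rose, 5 fell and 36 did not pass, with a median log2 fold change of 0.11. Over all tested genes 7.84% rose and 5.99% fell, and among those with at least 300 counts 9.35% and 7.37%. The list was chosen with earlier results of these data known, so its counts are not read as a result about such genes. Genes of transporter endocytosis moved both ways. Arrdc4, an alpha-arrestin, rose from 10.4, 12.7 and 16 CPM to 48.7, 52.5 and 47.5 CPM (log2 fold change 1.92, adjusted p = 2.54e-06), and Nedd4, a ubiquitin ligase that such adaptors recruit, rose from 190.6 ± 32.9 to 358.9 ± 16.6 CPM (0.91, adjusted p = 4.89e-05). Txnip, the alpha-arrestin that takes glucose carriers off the surface, fell from 940.6 ± 70.5 to 636 ± 19.6 CPM (-0.56, adjusted p = 0.000723). The sodium-potassium pump, which builds the sodium gradient used by many carriers, changed in its beta subunits. Atp1b1 rose from 33.1, 31.1 and 14 CPM to 153.5, 167.8 and 154.2 CPM (2.6, adjusted p = 0.0032), while Atp1b3 fell from 452.9 ± 19.6 to 305.4 ± 14.1 CPM (-0.57, adjusted p = 0.000432). Per kilobase of exon, Atp1b3 remained above Atp1b1 in DN NK1.1+ libraries, at 127.8 against 51.5 CPM per kilobase.

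Stk39, a kinase that acts on cation-chloride cotransporters, rose from 54.9 ± 7.03 to 102.1 ± 13.2 CPM (adjusted p = 0.000215), whereas Wnk1, the kinase upstream of it, was at 1169 and 1017 CPM and did not pass (adjusted p = 0.233). Gclm, which supports glutathione synthesis, rose from 40.4 to 64.9 CPM (adjusted p = 0.0047). The iron genes Tfrc and Steap3 and the alpha-arrestin Arrdc3 also rose, and Arrdc2 and Hif1a fell. Each of these calls ended in more than 1 of the fits that left out a single library. The Hif1a call ended without each of the 6 libraries in turn, with library size only, without the robust fit and without library 3 of both groups (adjusted p up to 0.238). That of Tfrc ended without any single library other than DN NK1.1+ library 3 (up to 0.178). That of Arrdc3 ended without library 1 or 2 of either group (up to 0.0985), and that of Arrdc2 without library 2 of either group (up to 0.058). The Steap3 call ended without CD8 beta+ library 1, DN NK1.1+ library 2 or DN NK1.1+ library 3, and without library 3 of both groups (up to 0.113). Among those that did not pass, those with the most CPM of their role, uncorrected for length, were Fth1 for iron, Mtf1 for zinc, Atf4 for the amino acid stress response, Mpc1 for mitochondrial pyruvate and Sfxn1 among sideroflexins, with log2 fold changes from -0.14 to 0.22. Mlxip, with the most CPM among the genes of growth and hypoxia transcription, was at 135.9 and 168 CPM. Its groups did not overlap, and it did not pass (adjusted p = 0.0652). Myc was at 77.5 and 83.7 CPM (adjusted p = 0.706).

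**Figure D5:**
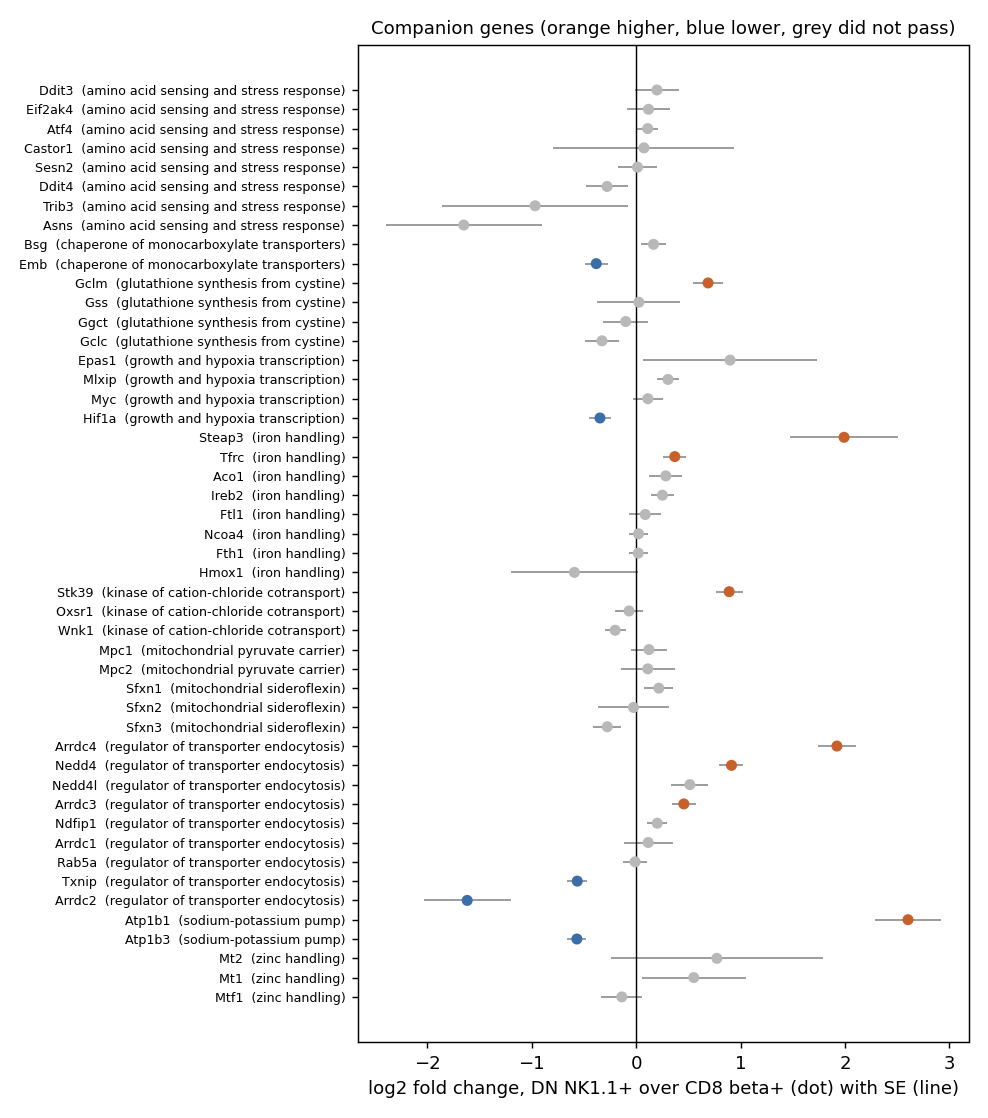
log2 fold change (dots, DN NK1.1+ over CD8 beta+) with its SE (lines) for 48 of the 49 companion genes that were tested, grouped by role; orange rose, blue fell and grey did not pass. Atp1b1, Steap3 and Arrdc4 lie furthest to the right. Arrdc2 and Asns, which did not pass, lie furthest to the left, while most grey dots lie near 0.

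Upstream sequences were searched for 7 motifs on both strands, in the 250 bases before the start of the 105 members with an entry in the RefSeq table and of 27025 genes in all. Those 27025 genes were not chosen by counts as the members were, and shares among genes with at least 300 counts were not computed. A difference in share is therefore not read as a trait of solute carriers. The E-box CACGTG, the core bound by MYC, USF and related factors, was found for 16 of the 105 members (15.2%) and 6.86% of all genes. The antioxidant element TGACNNNGC, the core bound by NRF factors, was found for 22 members (21%) and 11.5% of all genes. The RUNX core TGTGGT was found for 12.4% of members and 15.9% of all genes, and the ETS core CGGAAGT for 8.57% and 5.58%. The T-box core GGTGTGA was found for 1.9% of members and 3.84% of all genes. The cyclic AMP element TGACGTCA was found for 1.9% and 1.77%. For the ATF4 element TTGCATCA the shares were 0.952% and 0.918%. Of 15 members that passed the expression test and have an entry, 5 rose and 10 fell. The E-box was found in 1 of them, Slc16a1, and the antioxidant element in 4, namely Slc16a1, Slc41a2, Slc4a7 and Slc7a6, of which Slc41a2 alone rose. Slc25a24 held the RUNX core. In the sequences printed above, the E-box of Slc16a1 overlaps its antioxidant element, and the RefSeq start of Slc41a2 lies inside the first exon of its GENCODE model, so part of that window is transcribed in that model. A match is a description of letters and not a binding site.

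Some members share exon positions with other genes, and the sources used here do not give whether the counting used strand. Among members that passed, Slc25a37, Slc30a7, Slc37a1, Slc43a2 and Slc6a6 overlap noncoding genes or pseudogenes on the opposite strand. Reads of these partners cannot be told apart from those of the member without strand. Of the 22 calls, 11 held under every alternative tried, namely Slc16a1, Slc16a10, Slc22a15, Slc23a2, Slc27a6, Slc30a7, Slc35f5, Slc41a2, Slc43a2, Slc52a3 and Slc9a9.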

How the data were processed

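Sorted-cell RNA was purified on RNeasy Micro columns and prepared for sequencing with Tecan's Solo kit, per the labels' protocols. The authors deposited 1 table, whose values were taken for expected counts, a unit inferred from its values: they hold at most 2 decimals, 7.12% to 9.89% of those in a library are not whole, and totals differ. The submitters' processing notes list mm10 and Cell Ranger 7.1.0; for the bulk libraries, the sources used here do not give the aligner, counter or annotation. The headings of the ID and symbol columns are swapped in the table. Counts were rounded. Within a group, chi-square per degree of freedom between libraries was 9.46 to 25.7, so none was a copy.

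DN NK1.1+ was compared with CD8 beta+, 3 libraries each, in edgeR 4.0.16 (R 4.3.3; TMM factors 0.9653 to 1.031; robust quasi-likelihood; group alone; minimum count 10 and total 15), two-sided with Benjamini-Hochberg adjustment. SEs came from the F statistic. Alternatives were other scalings and filters, DESeq2 1.42.0, limma-voom (limma 3.58.1), a replicate block, other minimum totals and leaving out libraries. The fit was also run on counts simulated from the dispersions fitted to these libraries, and no result given here rests on that run. Exon lengths and coordinates came from GENCODE M21 on mm10, and upstream sequences from RefSeq.

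The members and the lists of classes, companion genes and markers were chosen with earlier results of these data known. Named members are those that passed with a 2-fold change, the 2 called members with the largest change in each direction of a class (at least 5 CPM), the highest of each class by mean CPM, the 6 companion genes with the smallest adjusted p and the highest of each role, and the highest marker of each cell type list. A member and a companion gene counted here are not reported by name. All others named, the 7 motifs, the sequences printed, the placing of 3 members as not transporters and leaving out library 3 of both groups were chosen after the values were seen.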

Additional observations from a re-analysis of the deposited data

How the results depend on the processing

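None of the 22 member calls changed direction in any alternative. All 22 passed under RLE and upper quartile scaling, without the filter on low counts, with at least 1 CPM in 3 libraries, in DESeq2, in limma-voom and without the robust fit, and 21 with library size only. Leaving out 1 library gave 6 to 10 members higher and 6 to 12 lower in DN NK1.1+, with 12 to 20 of the 22 calls shared, 681 to 1093 genes higher and 499 to 883 lower, and 5 to 7 companion genes higher and 2 to 4 lower. With library size only, or without the robust fit, 3 companion genes were lower. A minimum of 1000 counts left 93 members, 4 of them higher and 12 lower, and a minimum of 100 counts gave 168 members, 11 higher and 14 lower. Without library 3 of both groups, an alternative chosen after seeing the data, 14 members were higher and 12 lower. Of these calls, 7 were additional (Slc36a4, Slc37a3, Slc38a10, Slc38a2, Slc39a10, Slc39a4 and Slc7a5). The calls of Slc4a7, Slc29a3 and Slc35f2 ended. Shares over all genes are not given beside the counts in that fit or at minimums of 100 and 1000 counts. Those counts are therefore not read as a gain or loss among members. Slc9a3r1, which never passed, changed sign to -0.0073 with upper quartile scaling, -0.03 without CD8 beta+ library 2, -0.11 without DN NK1.1+ library 3 and -0.10 without library 3 of both groups; its range over single libraries left out was -0.11 to 0.10. Deviations of same-numbered libraries correlated at -0.035, 0.19 and 0.258, and those of differently numbered libraries at -0.266 to 0.094. The numbers were not used to pair the samples in the comparison reported, and whether they mark pairs was not settled. With the replicate block 9 members were higher and 12 lower, and the Slc37a1 call ended. Where the cause of a change is not the smaller number of samples or genes, it was not tested. The largest SEs of members were 0.688 for Slc15a2, 0.56 for Slc35f5 and 0.479 for Slc27a6.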

Other observations

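Markers of other cell types were listed beside the members. Macrophage and monocyte markers summed to 77.2 to 146.8 CPM in CD8 beta+ and 100.7 to 205.1 CPM in DN NK1.1+ libraries, endothelial markers to 34.8 to 40 and 48.3 to 79.7 CPM, B cell markers to 19.7 to 48.9 and 6.75 to 19 CPM, erythroid markers to 15.6 to 42.2 and 11.8 to 29.6 CPM, and neutrophil markers to 1.73 to 10.4 and 1.68 to 7.51 CPM. By mean CPM, uncorrected for length, the first of each list were Lyz2, Pecam1, Cd79b, Alas2 and S100a9, and Csn2, Acta2 and Col3a1 in the luminal, basal and fibroblast lists. Adipocyte markers summed to 0 to 29.8 and 2.51 to 35.3 CPM, nearly all of it Fabp4, and 3 of the 5 were at 0 in every library. Of the 5 T cell markers, Cd3e, Cd3d, Cd247 and Trac fell in DN NK1.1+ libraries (edgeR, adjusted p 7.89e-08 to 0.000456; Trac from 648.8 to 241.4 CPM), while Cd3g, with the most CPM uncorrected for length, was at 728.3 and 664.9 CPM (adjusted p = 0.501). Of the 5 NK cell markers, Ncr1, Klrb1c, Klrk1 and Tyrobp rose and Eomes did not pass (adjusted p = 0.392); Klrk1, with the most CPM uncorrected for length, rose from 106.7 to 573.2 CPM (edgeR, adjusted p = 1.51e-07).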
